A study of Mus musculus with 159 samples.

Results

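Endothelial receptor and junction genes, 10 in all, were followed across mammary tumors: the junction genes Pecam1 and Cdh5, the receptors Kdr, Flt1, Flt4, Tek, Tie1 and Robo4, the co-receptor Eng, and the hyaluronan receptor Lyve1. They were found by gene symbol in the annotation of the array, each of them had 1 probe set, and they make up 10 of 18954 named genes. The tumors came from 159 female mice of generation 7 of the Diversity Outcross (DO), an outbred mouse stock founded from inbred strains, crossed to mice carrying the PyMT transgene. In the MMTV-PyMT model the polyoma middle T antigen is driven by a mammary tumor virus promoter that is active in mammary epithelium, on the FVB/NJ background, so that tumors arise without any treatment. All animals belonged to 1 group, were about 100 days old and received no treatment, and each gave 1 tumor, measured as total RNA on 1 array. There was no control group and no normal mammary gland, so the comparisons are between genes and between tumors. Litters are not given in the labels used here, and the tumors were taken as independent.

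Blood vessels and lymphatic vessels are both lined by endothelium. Blood endothelium is held together by junction proteins and is steered by the receptors for vascular endothelial growth factors (VEGFs) and for angiopoietins, whereas lymphatic endothelium depends on the transcription factor Prox1 and on the VEGF-C receptor encoded by Flt4, which some blood capillaries make as well. Fat is a densely vascularised tissue with many capillaries, and the mammary gland consists largely of fat in which the epithelium, and later the tumor, grows. Lyve1 marks lymphatic capillaries but is also made by resident tissue macrophages, the long-lived macrophages that lie along vessels. A piece of tumor contains all of these cells, and in bulk RNA fewer cells of a type and less RNA per cell cannot be told apart.

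Values are log2 array values, in which a difference of 1 is a 2-fold difference between tumors, and different genes have different probes, so their levels were not compared with each other. The tissue label was checked first: the epithelial genes Krt8, Krt18 and Epcam had mean levels of 12.37 ± 0.29, 11.83 ± 0.31 and 10.68 ± 0.27 (SD, n = 159). A background level of 5.76 was set as the 95th percentile of 1218 receptor genes of nose and taste, and 4707 named genes lay at or below it. Arrays correlated with the others at a median r of 0.975 in general, and 6 low-correlation arrays fell to 0.895 at the lowest. In 9 tumors, called lymphoid-rich here, the B cell gene Cd79a was at 8.54 or more, whereas it was at 5.35 or less in the other 150. Results that rest on either set of tumors are given with and without them.

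All members were detected. Pecam1 (platelet and endothelial cell adhesion molecule, which joins endothelial cells and is also found on platelets and some leukocytes) lies on chromosome 11 at 106654213 to 106715281 of GRCm38.p6. Its level was 6.81 in the lowest tumor, 8.27 at the median and 9.93 in the highest, with a mean of 8.33 ± 0.50. Cdh5 (VE-cadherin, the cadherin of endothelial junctions), on chromosome 8 at 104101613 to 104144504, ran from 7.85 through a median of 9.21 to 10.53, with a mean of 9.24 ± 0.44. Between the extreme tumors this is an 8.68-fold range for Pecam1 and a 6.41-fold range for Cdh5. The same animal, 14917, had the lowest level of both, and also of Tie1 and Eng, and its fibroblast score was the lowest of all at -3.70.

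The VEGF receptors of blood endothelium had smaller SDs than the junction genes. Kdr (VEGFR2, the main signaling receptor for VEGF-A) ran from 6.20 through 7.03 to 8.14, a 3.86-fold range, with a mean of 7.07 ± 0.35. Flt1 (VEGFR1, which binds VEGF-A with high affinity and holds it away from VEGFR2) ran from 6.93 through 7.84 to 9.81, with a mean of 7.87 ± 0.41. The top of the Flt1 range was set by animals 14552 and 14562, at 9.81 and 9.59, which lay 0.68 above all other tumors. Both are among the low-correlation arrays, and their levels of Cdh5, 9.42 and 9.62, were within the range of the rest.

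The angiopoietin receptor pair and Robo4 came next. Tek (Tie2, the receptor for angiopoietins) ran from 5.47 through 7.06 to 8.53, with a mean of 7.07 ± 0.53, and 2 tumors lay at or below the background level, so no fold range is given. Tie1, its partner receptor, ran only from 6.72 through 7.50 to 8.36, with a mean of 7.51 ± 0.29. Animal 14788 had the highest level of both. Robo4, a Roundabout family receptor of endothelium, had the narrowest range of the members, from 6.53 through 7.06 to 7.78, with a mean of 7.08 ± 0.28. Eng (endoglin, the co-receptor for TGF-beta and BMP ligands on endothelium) ran from 7.85 through 9.16 to 10.40, with a mean of 9.21 ± 0.44.

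The lymphatic members had different spreads from each other. Flt4 (VEGFR3, the receptor for VEGF-C and VEGF-D) was at 5.86, 6.41 and 8.70 in the lowest, median and highest tumor, above background in every tumor, with a mean of 6.48 ± 0.37. Its maximum was animal 14739, which stood 0.65 above the next tumor. Lyve1 had the widest range of the members, 6.32, 7.81 and 10.64, with a mean of 7.91 ± 0.99 and a 19.9-fold range, and its SD was at the 98.9th percentile of all named genes. The highest Lyve1 level was in animal 14721, a lymphoid-rich tumor that was also highest in Robo4 and Eng.

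**Figure D1:**
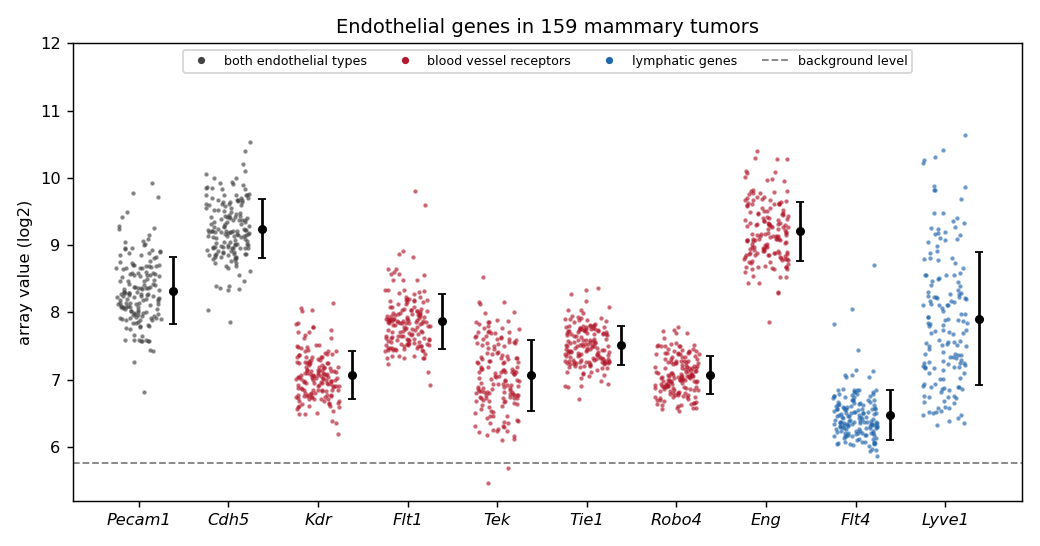
Level of each member in 159 tumors, as log2 array value, each small point 1 tumor, the black point and bar beside them the mean ± SD, and the dashed line the background level of 5.76. Lyve1 spans 6.32 to 10.64 and Robo4 6.53 to 7.78, and the ranges of the other 8 genes lie between these widths.

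Variation between tumors was tested with the log intensity variation filter named in the methods, here as a variance ratio, each gene's variance divided by the median across probe sets. All 10 members passed at p under 0.05, against 43.9% of all named genes. The variance ratio was 20.5 for Lyve1, 5.81 for Tek, 5.15 for Pecam1, 4.07 for Eng and 4.01 for Cdh5, and was lowest for Tie1 and Robo4 at 1.81 and 1.66. The count was 10 under every alternative run.

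Which members varied together was asked next, with Cdh5 as the reference for endothelium. In limma fits across all named genes, all 9 other members had a positive slope on Cdh5 at an adjusted p under 0.05, against 21.7% of all genes with a positive slope and 43.1% in either direction. The correlation with Cdh5 was r = 0.886 for Tie1 (rho = 0.890), 0.872 for Pecam1 (rho = 0.898), 0.794 for Eng (rho = 0.796), 0.789 for Kdr (rho = 0.783), 0.786 for Robo4 (rho = 0.798) and 0.731 for Tek (rho = 0.745). Each of these had a permutation p of 1e-05, the smallest that 100000 permutations can give, and r within the 5 blocks of consecutive animal numbers that were large enough ran from 0.617 (Tek) to 0.947 (Pecam1). Without the 2 tumors farthest from the median of Cdh5, r stayed between 0.707 and 0.874 for these 6 genes.

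The 7 members other than Flt1, Flt4 and Lyve1 formed 21 pairs, with r from 0.625 to 0.893 and a median of 0.789. Tie1 and Pecam1 were the closest pair. Flt1 correlated with those 7 at 0.335 to 0.550, Lyve1 at 0.570 to 0.755 and Flt4 at 0.147 to 0.374. Part of the distance of Flt1 lay with single arrays, since its r with Cdh5 was 0.490 over all tumors (rho = 0.603) and 0.634 without the 6 low-correlation arrays. Flt4 and Cdh5 had r = 0.323 (rho = 0.340), which was 0.212 without the lymphoid-rich tumors. Within blocks of animal numbers it ran from -0.15 to 0.448, so r was not positive in every block, and differences between blocks were not tested. By limma the slope of Flt4 on Cdh5 passed with the blocks as a term (adjusted p = 0.0010) and without the lymphoid-rich tumors (adjusted p = 0.0275).

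**Figure D2:**
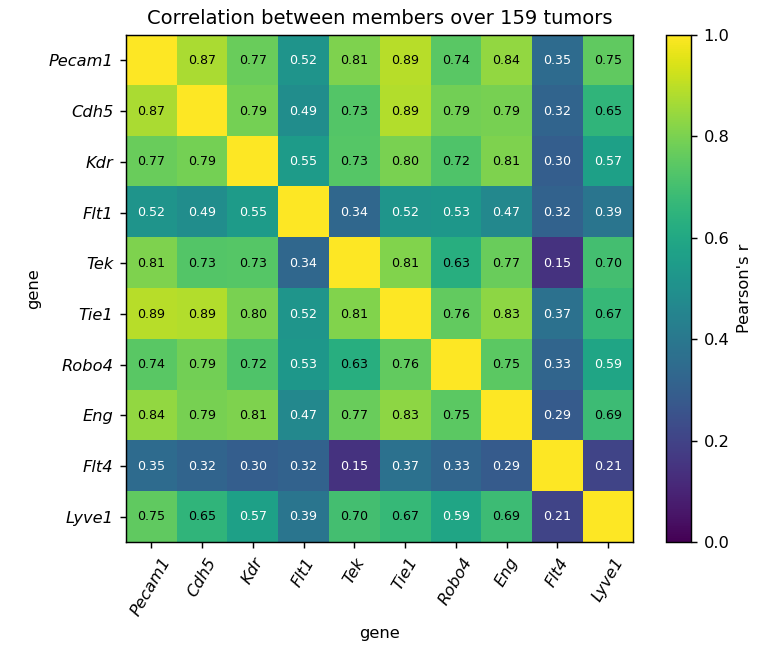
Pearson r between every pair of the 10 members over 159 tumors, as a colour grid with the value in each cell. The 7 members other than Flt1, Flt4 and Lyve1 correlate at 0.625 to 0.893, and Flt4 has the lowest values, from 0.147 to 0.374 with those 7.

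The genes most like each member, out of 14246 above background, were looked up. For Cdh5 they were Adgrl4 (r = 0.888), Tie1, Esam (0.886), Pecam1 and Cd93 (0.850), for Tie1 they began with Esam (0.893) and Pecam1, and for Robo4 with Esam (0.797). Esam encodes a further adhesion molecule of endothelial junctions, and Adgrl4 an adhesion receptor of endothelium. Eng was closest to Plvap (0.865), which encodes the protein of the diaphragms of endothelial pores, and Pecam1 to Tie1, Ebf1 (0.892) and Cdh5. The 5 nearest genes of Tek were not members, namely Ndn (0.870), Nrp1 (0.864), Abca9 (0.860), Srpx (0.858) and Htra3 (0.853). Among its 50 nearest genes were 2 members, Tie1 at rank 33 and Pecam1 at rank 34, and Cdh5 came at rank 159. Flt1 was closest to Plxna2 (0.720), Hcar2 (0.704) and Gcnt2 (0.698), with no other member among its 50 nearest genes.

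A wider list of endothelial genes was read beside the members. Of 24 such genes, 23 had a positive slope on Cdh5, against 21.7% of all genes, and none a negative one. Their median r was 0.673, against -0.03 over all genes. The exception was Tal1, a transcription factor of blood and endothelial precursors, with r = -0.11. Among genes that act with the members, Nrp1 (neuropilin 1, a VEGF co-receptor) had r = 0.847 with Cdh5, and Ptprb (VE-PTP, a phosphatase that acts on Tie2 and VE-cadherin) 0.825, and 11 of 14 such partners had a positive slope and none a negative one, where 21.7% of all genes had a positive slope. Of 9 pericyte genes, 6 had a positive slope, against the same 21.7%, with r = 0.788 for Rgs5 and 0.689 for Pdgfrb. A positive slope on Cdh5 was also found for 10 of 10 fibroblast and 8 of 8 macrophage genes, but for 1 of 8 epithelial genes. The median r was 0.588 for the fibroblast and 0.543 for the macrophage genes. For the ligands the relation was mixed: 9 of 14 had a positive slope on Cdh5, again against 21.7%, among them Slit3, a Slit ligand (r = 0.654), and Angpt2, the ligand of Tie2 that can oppose its activation (r = 0.411). Vegfa, the main ligand of Kdr and Flt1, had r = -0.10 (adjusted p = 0.31), which did not pass.

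The start sites of the members were searched for letters bound by transcription factors of endothelium. Windows of 300 bases, from 250 before to 50 after the start site, were taken from RefSeq (GRCm38.p6), and 7 of the 10 members had one, all but Pecam1, Cdh5 and Lyve1. On both strands the ETS letters CAGGAAG were found in 13.3% of 32851 windows and CCGGAAG in 8.86%, the GATA letters AGATAA in 11.2%, the FOX letters TGTTTAC in 3.65% and the SOX letters ACAATGG in 3.66%. Among the members, only Robo4 held the first, beginning at position -50 from its start site, and only Tek held the GATA letters, beginning at position 37. The other motifs were in none of the 7 windows, which says only that these letters are not there. The windows of Robo4 (chr9:37401722-37402021, plus strand) and Tek (chr4:94739039-94739338, plus strand) are shown because they alone contain a match, with the match in capitals, and a match is a description and not a site of binding.
Robo4: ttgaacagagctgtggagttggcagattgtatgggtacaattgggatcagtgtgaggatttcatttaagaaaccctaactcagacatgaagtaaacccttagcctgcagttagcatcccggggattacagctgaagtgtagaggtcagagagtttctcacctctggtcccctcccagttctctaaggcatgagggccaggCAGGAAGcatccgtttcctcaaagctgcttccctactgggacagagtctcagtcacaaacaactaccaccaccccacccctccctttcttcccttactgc
Tek: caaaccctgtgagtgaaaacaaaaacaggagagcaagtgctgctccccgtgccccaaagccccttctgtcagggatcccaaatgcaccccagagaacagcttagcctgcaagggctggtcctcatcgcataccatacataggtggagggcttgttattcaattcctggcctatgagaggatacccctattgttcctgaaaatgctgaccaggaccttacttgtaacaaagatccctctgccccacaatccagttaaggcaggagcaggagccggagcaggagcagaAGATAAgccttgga

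The relation to fat content was measured with an adipocyte score, the mean standardized level of 9 fat cell genes in units of its SD over the tumors, among them Adipoq, Plin1 and Cidec. Genes that capillary endothelium can express as well, such as Fabp4 and Cd36, were left out of it. The score ran from -1.43 through a median of -0.17 to 2.86, with no gap over 0.32, so the tumors formed 1 continuous range. In limma fits 9 of 10 members rose with it, all except Flt4, against 17% of all genes with a positive slope and 34% in either direction.

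Tek had the closest relation to fat. Its level rose by 0.40 ± 0.027 (SE) for each unit of the score, or 1.32-fold, with an adjusted p of 6.0e-30 by limma, r = 0.766 and rho = 0.778. Pecam1 rose by 0.33 ± 0.029 per unit (adjusted p = 1.1e-20, r = 0.673, rho = 0.685) and Cdh5 by 0.27 ± 0.027 (adjusted p = 6.3e-17, r = 0.624, rho = 0.596). Kdr, Robo4, Tie1 and Eng had r of 0.647, 0.640, 0.631 and 0.610 and rho of 0.591, 0.589, 0.608 and 0.644. The slopes of these 4 genes were between 0.18 and 0.27. Flt1 was weaker, at 0.16 ± 0.030 (adjusted p = 3.5e-06, r = 0.392, rho = 0.348), and r for it fell to 0.347 without the 2 tumors farthest from the median score. Animal 14948, with the highest adipocyte score of 2.86, had the highest Kdr level and ranked 4 in Cdh5, Tek, Tie1 and Robo4.

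Lyve1 had the steepest slope, 0.64 ± 0.060 per unit or 1.55-fold (adjusted p = 2.7e-18, r = 0.642, rho = 0.700). Flt4 did not pass, with a slope of 0.04 ± 0.029 (95% interval -0.02 to 0.09, adjusted p = 0.35), r = 0.101 (permutation p = 0.2) and rho = 0.0696 (permutation p = 0.38). The median level of Flt4 was 6.41, against a background level of 5.76. Whether this low signal weakened the relations of Flt4 was not tested. With 1 tumor left out at a time, its r with fat ran from 0.066 to 0.158, and it was highest without animal 14739. Within blocks of animal numbers r for Flt4 ran from -0.24 to 0.344, whereas for the other 9 members it was positive in every block, lowest for Flt1 at 0.266. The permutation p of r and of rho was 1e-05 for the other 8 members and for the r of Flt1, whose rho had a p of 2e-05. In all, 64 relations were given such p-values, and the adjusted p beside them is over all genes.

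**Figure D3:**
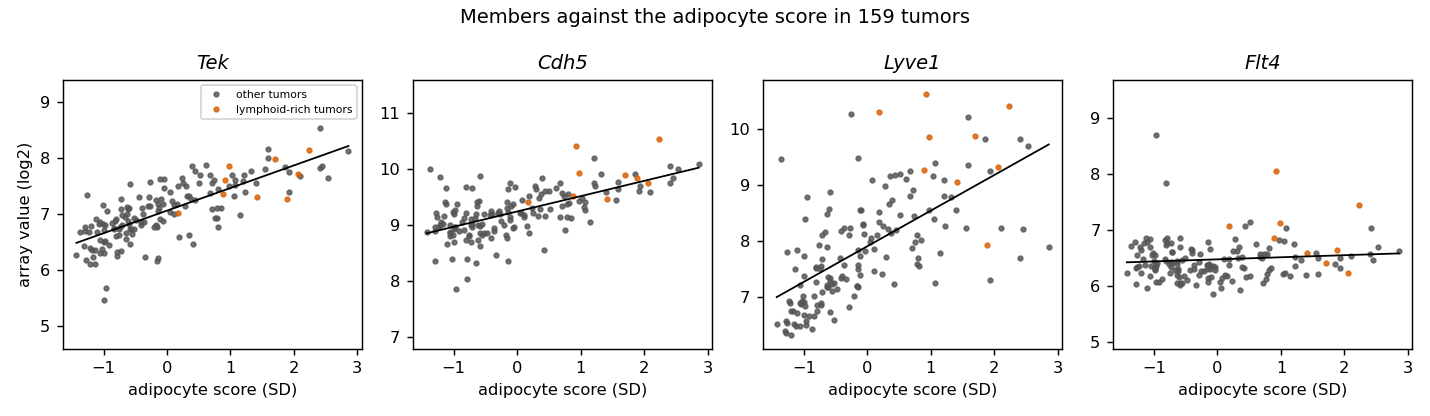
Levels of Tek, Cdh5, Lyve1 and Flt4 (log2 array value, vertical axis) against the adipocyte score (in SD, horizontal axis), each point 1 of 159 tumors, with a fitted line and the 9 lymphoid-rich tumors in orange. Tek rises along the score (r = 0.766), and the line of Flt4 is nearly level (r = 0.101).

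Whether the slopes differed between members was tested directly, as the slope of each gene minus Cdh5 within the same array. Of 9 members, 7 differed from Cdh5, but 97% of all genes did as well (1.36% upwards and 95.6% downwards), so the count is read only by its direction and sizes. The sizes compare log2 array values from different probes and at different distances from background. What these contribute to a difference in slope was not tested. Tek rose by 0.13 ± 0.028 more than Cdh5 per unit of score (adjusted p = 5.1e-06), Pecam1 by 0.06 ± 0.020 more (adjusted p = 0.0030) and Lyve1 by 0.36 ± 0.053 more (adjusted p = 2.2e-10). Tie1 had a difference of -0.09 (adjusted p = 4.0e-06), Robo4 of -0.09 (adjusted p = 4.9e-05), Flt1 of -0.11 (adjusted p = 8.7e-04) and Flt4 of -0.24 (adjusted p = 1.9e-11). Kdr, at -0.04 (95% interval -0.09 to 0.00047), and Eng, at -0.0036 (95% interval -0.05 to 0.04), did not pass, and these intervals give the differences that remain possible. Kdr did pass with blocks of animal numbers as a term (-0.07, adjusted p = 0.0020), and also with quantile normalization, ranks and both other fat measures.

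**Figure D4:**
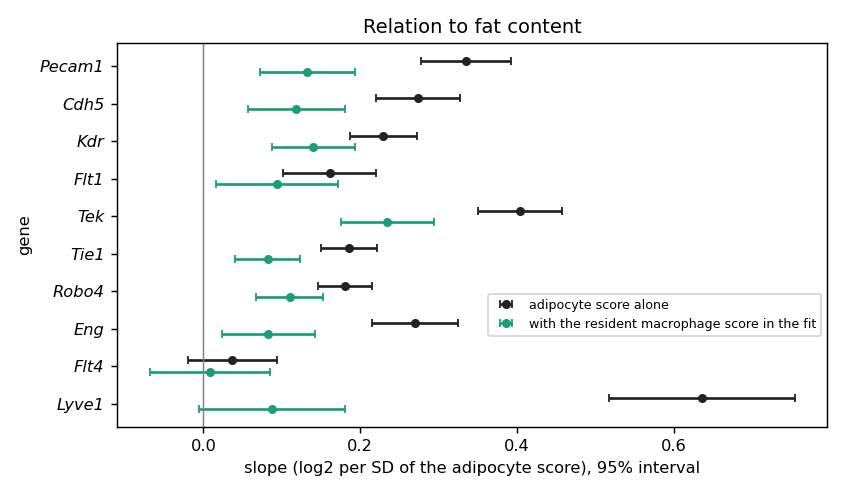
Slope of each member on the adipocyte score (log2 per SD of score, points) with 95% intervals (bars), for the score alone in black and with the resident macrophage score in the fit in green. Alone, Lyve1 at 0.64 and Tek at 0.40 lie to the right of Cdh5 at 0.27, and the green slope of Lyve1 is 0.09.

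Other cell types moved with the fat score as well. Its correlation was r = 0.664 with a score of 9 resident macrophage genes, 0.499 with fibroblast genes and 0.463 with pericyte genes, and 0.0232 (permutation p = 0.77) with epithelial genes. The resident macrophage score was added as a further term, chosen after seeing the data. In that fit 6 of 10 members passed, all with a positive slope on fat, against 11.9% of all genes called in either direction. Every slope was lower than with the adipocyte score alone. Tek had 0.23 ± 0.030 (adjusted p = 6.8e-11) after 0.40 alone, Pecam1 0.13 after 0.33, Cdh5 0.12 after 0.27 and Tie1 0.08 after 0.19. Flt1, Eng and Lyve1 no longer passed, with slopes of 0.09, 0.08 and 0.09 (adjusted p = 0.11, 0.051 and 0.25). With the fibroblast score as a term, 9 of 10 still passed, against 25.8% of all genes. The difference from Cdh5 depended on these terms: it passed for Tek, Tie1, Flt4 and Lyve1 with the fibroblast score in the fit (93.9% of all genes), and of the members for Tek and Flt4 alone with the resident macrophage score (83.5% of all genes). Fibroblast genes were all above background, 10 of 10 rose with fat, against 17% of all genes, and their score ran from -3.70 to 2.32. The part of these cells in the relation of the members to fat was not tested.

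The members also varied together beyond fat. With the adipocyte score in the fit, all 9 other members had a positive slope on Cdh5, against 20.2% of all genes with a positive slope and 36.4% in either direction. A 1 log2 higher Cdh5 level went with a Pecam1 level higher by 0.84 ± 0.053 (adjusted p = 1.1e-30), a Tie1 level by 0.54 ± 0.031 (adjusted p = 1.3e-34) and a Tek level by 0.50 ± 0.068 (adjusted p = 1.6e-09) at equal score. Of the wider list of 24 endothelial genes, 23 did so too. In the same fit 10 of 10 fibroblast and 8 of 8 macrophage genes also rose with Cdh5. So did 8 of 9 resident macrophage and 8 of 9 pericyte genes, but none of 8 epithelial genes. This co-variation was therefore not limited to endothelial genes. On fat, 23 of the 24 endothelial genes had a positive slope, against 17% of all genes, with a median r of 0.617.

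Lyve1 and Flt4, the members named for lymphatic endothelium, varied together only weakly. Their r was 0.206 (rho = 0.167, adjusted p = 0.031 in the fit on Lyve1), it ran from -0.21 to 0.529 within blocks of animal numbers, and it was 0.0407 without the 9 lymphoid-rich tumors. With 1 tumor left out at a time, r ran from 0.143 to 0.296, and it was highest without animal 14739. That animal had the highest Flt4 of all at 8.70 and a Lyve1 of 6.57, near the bottom of its range. Of the lymphatic genes, Prox1 was at 6.46 in this tumor and Mmrn1 at 4.64, below the background level of 5.76. Animal 14613, with a Flt4 of 7.83, had a Lyve1 of 7.27. Animal 14721 was high in both, at 8.05 and 10.64.

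Lyve1 tracked resident macrophage genes. Its r with the resident macrophage score was 0.893 (rho = 0.890, permutation p = 1e-05 for both), with a range of 0.831 to 0.915 within blocks, and r with a general macrophage score was 0.618. The nearest genes to Lyve1 were Cfp (r = 0.888), Cd209d (0.887), Ccl6 (0.880), Cd163 (0.861) and Clec10a (0.854), of which Cd163 encodes a scavenger receptor and Clec10a a lectin of macrophages. Among its 50 nearest genes were 6 of the 9 resident macrophage genes and 2 of the wider list of 24 endothelial genes. None of the other members was among them, and the nearest of these was Pecam1 at rank 64. Of the other 9 members, 8 had a positive slope on this score, all but Flt4, against 18% of all genes, with r from 0.399 for Flt1 to 0.790 for Pecam1. This r was above that with fat for Pecam1 (0.790 against 0.673), Eng (0.761 against 0.610), Tie1 (0.715 against 0.631) and Cdh5 (0.711 against 0.624). It was close to that with fat for Tek (0.779 against 0.766), Flt1 (0.399 against 0.392), Kdr (0.642 against 0.647) and Robo4 (0.636 against 0.640). These differences in r were not tested. Flt1 no longer passed with the adipocyte score as a term (slope 0.10, adjusted p = 0.053) or with the general macrophage list in place of the resident one (slope 0.07, adjusted p = 0.057).

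In fits on Lyve1 itself, all 9 other members had a positive slope, against 16.7% of all genes with a positive slope and 31.3% in either direction. Without the lymphoid-rich tumors Flt4 (adjusted p = 0.031 with all tumors) was lost and the other 8 passed, against 27.7% of all genes. With the resident macrophage score as a term, limma called none of the 9, against 4.59% of all genes, and 2 of them, Pecam1 and Flt4, had an unadjusted p under 0.05. Lyve1 and that score had r = 0.893, so a fit with both estimates the slope on Lyve1 less precisely. The lost calls therefore cannot tell whether a relation beyond that score remained. The slope of Pecam1 was 0.38 alone and 0.12 with the term, and that of Tek 0.37 and 0.02, whereas that of Flt4 was 0.08 and 0.16 (adjusted p = 0.14). In the reverse fit the slope of Lyve1 on Cdh5 was 1.48 ± 0.135 alone and 0.09 ± 0.115 (adjusted p = 0.56) with that term, while the other 8 members still passed, against 34.7% of all genes. All 9 resident macrophage genes were above background and had a positive slope on Lyve1 (16.7% of all genes), 8 of them also on fat (17% of all genes). Their score ran from -2.32 to 2.36. Whether lymphatic vessels, macrophages or both carried the Lyve1 level cannot be told apart in this RNA.

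**Figure D5:**
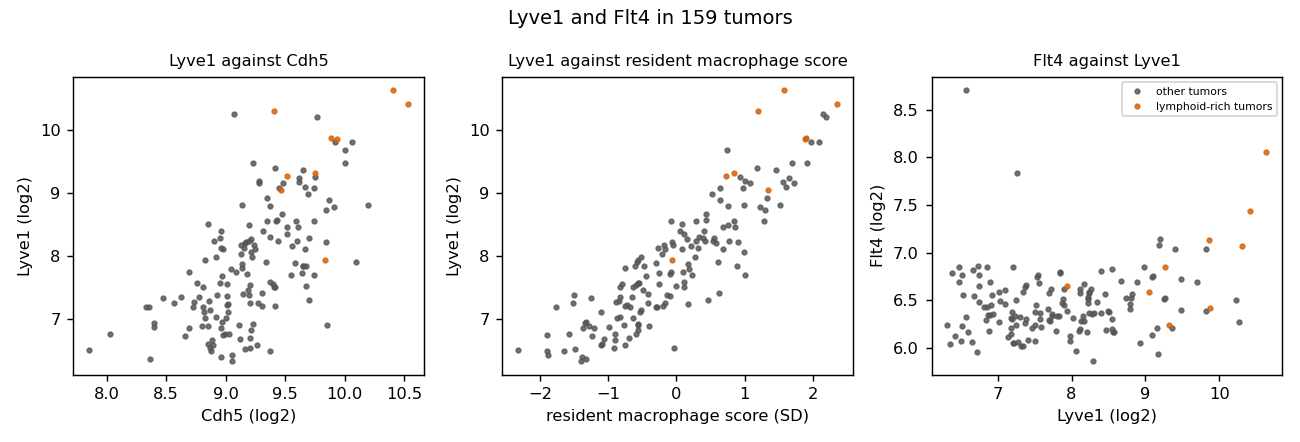
Lyve1 against Cdh5, Lyve1 against the resident macrophage score and Flt4 against Lyve1 (log2 array values, and SD for the score), each point 1 of 159 tumors, with the 9 lymphoid-rich tumors in orange. Lyve1 follows the macrophage score (r = 0.893) and has little relation to Flt4 (r = 0.206).

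The lymphatic genes outside the members were read against both. Of 8 measured, 7 had a positive slope on Lyve1 (16.7% of all genes) and 5 on Flt4 (4.59% of all genes). None of the 8 passed with a negative slope on either. On the fat score 5 of the 8 rose, 1 fell and 2 did not pass, with a median r of 0.305. Among all genes, 17% had a positive slope on fat and 34% passed in either direction. Without the lymphoid-rich tumors only 13 of all 18953 genes tested were called on Flt4. Over all tumors Mmrn1 (multimerin 1, made by lymphatic endothelium) had the highest r with both, 0.565 with Lyve1 and 0.500 with Flt4. Prox1 had 0.279 and 0.258, which were 0.144 and 0.124 without the lymphoid-rich tumors. Reln (reelin, secreted by collecting lymphatics) had 0.414 and 0.222, and without those tumors 0.393 and 0.145, and Nrp2 (neuropilin 2, a co-receptor for VEGF-C) had 0.547 and 0.349, and without them 0.483 and 0.268. Stab2, a hyaluronan receptor of sinus endothelium in lymph node, spleen and liver, had 0.363 and 0.364, but without them these were 0.00214 and -0.10. For Mmrn1 the values without those tumors were 0.468 and 0.346. By rho, Nrp2 was closer than Mmrn1 to Lyve1 (0.599 against 0.500) and Itga9 to Flt4 (0.425 against 0.383). The median of Mmrn1 in the 150 tumors that were not lymphoid-rich was 4.88, below the background level of 5.76. The r with Lyve1 and Flt4 was 0.216 and 0.367 for Itga9, 0.315 and 0.122 for Pdpn, and -0.11 and 0.04 for Foxc2.

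The calls on Flt4 changed most without the lymphoid-rich tumors. In a fit on Flt4, added after seeing the data, 7 of 9 members had a positive slope, all but Tek and Lyve1 (adjusted p = 0.31 and 0.11), against 4.59% of all genes with a positive slope and 5.22% in either direction. Without the 9 tumors limma called none of the 9, with 0.0686% of all genes called in either direction, although 7 members had an unadjusted p under 0.05 and the r of Flt1 and Tie1 with Flt4 was still 0.324 and 0.274. Of the 10 tumors highest in Flt4, 4 were lymphoid-rich, against 5 for Lyve1, 5 for Pecam1, none for Flt1 and 3 for each of the other members, and 7 for Stab2 and 9 for Timd4, a resident macrophage gene. Lyve1 had a median of 9.86 in the lymphoid-rich tumors (7.94 to 10.64) and of 7.72 in the other 150 (6.32 to 10.26), so that even the lowest of the 9 lay above the median of the rest. The medians were 9.28 and 8.25 for Pecam1 and 6.85 and 6.39 for Flt4, and the ranges overlapped for all of these genes. The relation of the members to fat did not rest on these tumors: without them 9 of 10 still passed, against 30.8% of all genes, and r was 0.753 for Tek, 0.581 for Cdh5 and 0.0200 for Flt4.

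Ligands were last. Vegfd, which encodes a ligand of Flt4, rose with fat (r = 0.674), with Lyve1 (0.805) and with the resident macrophage score (0.856), but not with Flt4 itself (r = 0.115, adjusted p = 0.47). Vegfc, the other ligand of Flt4, had r = 0.240 with Flt4 (adjusted p = 0.045) and 0.199 with fat. Vegfa fell with the fat score (slope -0.15 ± 0.049, adjusted p = 0.012, r = -0.23), as did Pgf, placental growth factor, a ligand of Flt1 (slope -0.22 ± 0.067, adjusted p = 0.0053). Vegfb, also a ligand of Flt1, rose (r = 0.427). Of the 14 ligands, 6 rose with fat, 2 fell and 6 did not pass, against 17% of all genes with a positive slope and 34% in either direction.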

How the data were processed

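For their own analysis the authors scaled the arrays to the median array in BRB ArrayTools. The deposited values are log2 values between 3.47 and 13.88, 1 column per tumor over 20718 probe sets, and their array medians ran from 6.81 to 7.18. For background correction and probe summarization the method was not given in the sources used. Array values have no read depth, and the number of tumors limits the precision.

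The median difference of each array to the median array, at most 0.24, was then subtracted. Probe sets with 1 symbol in the platform annotation (18965) were named, with symbols updated for the 18940 whose identifier was in the gene table. The 688 with several symbols and the 1065 without an entry were not used. A gene with several probe sets was read from the one of highest mean. A score is the mean of the standardized values of a list, rescaled so that 1 unit is its SD over the 159 tumors. Slopes were fitted with limma 3.58.1 (lmFit, eBayes) in R 4.3.3 across all named genes except those in the score, with Benjamini-Hochberg adjustment and a threshold of 0.05. Intervals are 95%. The variation test was a one-sided chi-square test. Correlations used two-sided permutations. Blocks are runs of animal numbers (26 to 41 tumors each, and a last block of 5 was not used). Fits on the adipocyte score alone were checked on simulated data with independent noise between genes, which does not cover fits with a further score as a term. Python 3.11.15, numpy 2.4.6, pandas 2.3.3, scipy 1.17.1 and matplotlib 3.10.9 were used.

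The members and gene lists were chosen with earlier results of these data known. Named genes were the members, for each member the 5 genes above background with the highest r, the highest and lowest of each list by r with Cdh5, and the lymphatic and ligand genes, and genes outside this rule, among them Krt8, Krt18, Epcam, Cd79a and Timd4, were named after their values were seen. The adipocyte list had 11 genes, of which Adrb3 and Cfd were not measured, and the lymphatic list 9, of which Ccl21a was not. An R follows the number of 2 animals, and its meaning is not given. Alternatives tried were quantile normalization, the deposited values without the shift, the most variable probe set of a gene, dropping low-correlation arrays, blocks as a term, ranks, genes above background, other fat measures and scores of other cell types as terms. Leaving out lymphoid-rich tumors, the fits on Flt4, and the resident macrophage, proliferation and adipocyte scores as terms in some fits were added after seeing the data.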

Additional observations from a re-analysis of the deposited data

How the results depend on the processing

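No paired analysis was possible because all tumors form 1 group. Of 845 single gene results under an alternative, 793 kept their direction and side of the threshold, 38 kept the direction and no longer passed, 5 newly passed, all of them Kdr against Cdh5 in slope on fat, and 9 changed sign. Every setting gave 10 of 10 members past the variation test and, on fat, 9 of 10, or 6 with the resident macrophage score as a term. That term took the members related to Lyve1 from 9 to 0, in a fit where Lyve1 and the score had r = 0.893, which makes the slope on Lyve1 imprecise. The same term took the members that differ from Cdh5 in their slope on fat from 7 to 2, and the fibroblast score took the latter to 4. Leaving out the lymphoid-rich tumors took the members related to Flt4 from 7 to 0, and quantile normalization to 5. Flt4 also lost its relation to Lyve1 with the deposited values, quantile normalization, ranks or without the low-correlation arrays. With the resident macrophage score as a term, Kdr on Lyve1 was -0.0057, and the differences from Cdh5 of Kdr and Lyve1 were 0.022 and -0.031. With the fibroblast score as a term, the difference of Flt1 was 0.0021. For Eng, the difference from Cdh5 was 0.0018 without the lymphoid-rich tumors, 0.0025 as deposited, 0.00011 with quantile normalization, 0.00067 without low-correlation arrays and 0.017 with ranks. The cause of these changes was not tested. In 2 tumors Tek lay at or below background, so its lowest levels are bounds.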
